A study of Mus musculus with 6 samples.

Results

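The nuclear genes of the mitochondrial respiratory chain were followed in the livers of 3 mice carrying a transgene for Retnla and 3 mice without it. Members were chosen by name: every probe set annotated with exactly 1 gene symbol starting with Nduf, Sdha, Sdhb, Sdhc, Sdhd, Uqcr, Cox4, Cox5, Cox6, Cox7, Cox8 or Atp5, together with Cyc1 and Cycs. This gave 190 probe sets for 96 genes, out of 18193 genes with a probe set of their own. Where a gene had several probe sets, the one with the highest mean signal was used. The array carried 6 core and 28 supernumerary subunits of complex I, 4 subunits of complex II, 9 of complex III, cytochrome c, 18 of complex IV, 17 of complex V and 13 assembly factors.

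Both groups were male C57BL6/J mice, 3 months old, that had eaten a high-fat diet (21% fat and 0.15% cholesterol) for 4 weeks, started when they were 8 weeks old. The transgenic group is called Tg (mice 5, 6 and 7) and the non-transgenic group non-Tg (mice 1, 2 and 3); diet, sex and age were shared, so the groups differ by label in the transgene alone. Which promoter drives the transgene, and in how many founder lines, is not stated in the labels. Liver RNA was hybridized to Affymetrix whole-genome mouse arrays, with 1 array per mouse, and values are log2 signals. The product of Retnla, resistin-like molecule alpha, is a secreted protein known from alternatively activated macrophages.

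The respiratory chain lies in the inner mitochondrial membrane. Complexes I and II pass electrons from NADH and succinate to coenzyme Q, complex III passes them on to cytochrome c, and complex IV gives them to oxygen; complex V, the ATP synthase, uses the proton gradient that complexes I, III and IV build. Most subunits are encoded in the nucleus and a few in mitochondrial DNA, and assembly factors help to build the complexes without staying in them. Liver is rich in mitochondria, and nuclear respiratory factor 1 (NRF1), GABP, YY1 and the oestrogen-related receptors (ERR) are known regulators of many of these genes.

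The promoters of 5 members are shown because they set the members' regulatory sequence beside the values below. Atp5g1, Atp5g2 and Atp5g3 encode the same mature subunit c of the ATP synthase behind different import sequences, and their differences between the groups were not alike. Sdha and Sdhd belong to complex II, and Sdha was the only complex II gene whose groups did not overlap. Each sequence is the 250 bases before the annotated start, 5′ to 3′ on the strand of the gene, from RefSeq on GRCm38.p6. Capitals mark a match, on either strand, to GCGCA, any base and then GCGC (NRF1), to ACCGGAAG (GABP) or to TCAAGGTCA (ERR).
Atp5g1: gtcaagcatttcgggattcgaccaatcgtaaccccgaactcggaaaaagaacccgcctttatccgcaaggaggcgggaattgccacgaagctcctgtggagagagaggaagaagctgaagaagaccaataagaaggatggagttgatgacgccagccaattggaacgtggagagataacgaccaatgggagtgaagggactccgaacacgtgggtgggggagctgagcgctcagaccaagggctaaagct
Atp5g2: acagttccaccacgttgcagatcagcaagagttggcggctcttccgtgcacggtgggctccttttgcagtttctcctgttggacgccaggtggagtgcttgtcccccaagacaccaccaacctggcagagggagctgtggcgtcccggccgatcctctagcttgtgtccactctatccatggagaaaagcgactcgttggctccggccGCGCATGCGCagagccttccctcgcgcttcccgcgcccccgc
Atp5g3: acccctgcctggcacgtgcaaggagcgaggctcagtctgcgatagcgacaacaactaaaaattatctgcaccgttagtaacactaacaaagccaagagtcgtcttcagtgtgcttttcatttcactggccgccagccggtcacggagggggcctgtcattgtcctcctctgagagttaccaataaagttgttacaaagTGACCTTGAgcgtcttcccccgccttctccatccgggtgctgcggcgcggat
Sdha: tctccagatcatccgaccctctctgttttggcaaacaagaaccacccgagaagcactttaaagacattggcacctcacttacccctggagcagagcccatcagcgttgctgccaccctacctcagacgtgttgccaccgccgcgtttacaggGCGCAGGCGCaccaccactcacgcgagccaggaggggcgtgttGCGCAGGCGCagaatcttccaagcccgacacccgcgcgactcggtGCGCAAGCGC
Sdhd: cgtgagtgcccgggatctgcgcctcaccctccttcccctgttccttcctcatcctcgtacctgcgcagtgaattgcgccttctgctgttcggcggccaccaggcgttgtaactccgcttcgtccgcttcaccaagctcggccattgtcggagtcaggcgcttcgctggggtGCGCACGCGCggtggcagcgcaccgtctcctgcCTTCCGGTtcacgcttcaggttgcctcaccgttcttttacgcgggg
All 5 genes lie on the minus strand, at chr11:96075632-96075881 for Atp5g1, chr15:102671048-102671297 for Atp5g2, chr2:73911327-73911576 for Atp5g3, chr13:74350241-74350490 for Sdha and chr9:50603850-50604099 for Sdhd. Sdha held 3 NRF1 matches, Atp5g2 held 1, Sdhd held 1 NRF1 and 1 GABP match, Atp5g3 held 1 ERR match, and Atp5g1 held none of them.

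Among the 79 members with an entry in the promoter table, 12 (15.2%) held an NRF1 match in these 250 bases, against 4.23% of 27025 genes. The GABP letters occurred in 4 members (5.06%) against 1.95% of genes, the ERR letters in 1 (1.27%) against 0.422%, and the YY1 letters AAGATGGC in 1 (1.27%, Atp5j) against 1.83%. A match describes the letters and does not show that a factor binds. The median difference between Tg and non-Tg was -0.07 over the 11 tested members with an NRF1 match, of which 8 were lower, and -0.05 over the 65 without one, of which 45 were lower.

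The labels and the tissue were checked first. The log2 signal of Retnla was 6.03, 7.41 and 6.48 in non-Tg mice 1, 2 and 3 and 16.04, 15.91 and 16.04 in Tg mice 5, 6 and 7 (difference 9.36 ± 0.28 SE, adjusted p = 4.07e-07, limma with Benjamini-Hochberg adjustment). Hepatocyte markers matched the labelled tissue, with 9 of 9 above the limit for dim probe sets and mean log2 signals from 13.8 to 16.7. Of 15 heart and skeletal muscle markers 12 lay below that limit. Of 7 brown fat markers 3 lay below it, Ucp1 (mean 3.18), Cidea (3.65) and Cox8b (5.31), and 4 lay above it. The arrays fell into sets by the signal of bioC, a bacterial control transcript spiked into the hybridization: it lay between 9.83 and 9.94 on non-Tg 1, Tg 5 and Tg 6 and between 11.2 and 11.4 on non-Tg 2, non-Tg 3 and Tg 7. These are called the lower and the higher set. The 3′ minus 5′ difference of the beta-actin control, a measure of RNA and labelling quality, followed the same sets, at 0.735 to 0.810 in the lower and 1.09 to 1.19 in the higher set. The same measure of Gapdh did not follow them (-0.34 to -0.19 in the lower and -0.29 to -0.25 in the higher set). For the pyruvate carboxylase control it was 2.63 and 2.55 in Tg 5 and Tg 6 against 2.95 in non-Tg 1, and 3.21 in Tg 7 against 3.77 and 3.65 in non-Tg 2 and 3, so it was lower in Tg within both sets.

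No respiratory chain gene passed the test between Tg and non-Tg livers. Of 96 members, 93 lay above the limit for dim probe sets (a mean log2 signal of 5.63) and were tested among 12705 genes; Cox7b2, Cox8b and Ndufb4 lay below it. With limma and Benjamini-Hochberg adjustment over all genes at a threshold of 0.05, 0 of 93 members were called, and the lowest adjusted p of a member was 0.779. Over all genes 2 were called (0.0157%), Retnla and Nnt, both higher in Tg and neither a member. At an unadjusted limma p under 0.05, 2 members were lower in Tg, Ndufa2 and Atp5mpl, and 0 were higher; of all genes 6.05% were past that p, 3.12% lower and 2.93% higher. Bulk liver RNA was measured, so fewer cells of a type and less RNA per cell cannot be told apart.

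For most members, the intervals bound how large a difference in the signal of the probe set used could have gone unseen. The 95% confidence interval of the fold stayed within 1.5-fold in either direction for 85 of 93 members (91.4%), against 38.7% of all genes tested. It stayed within 2-fold for 88 of 93 (94.6%), against 67.7%. Members varied less between mice than genes in general, with a median pooled SD of 0.109 on the log2 scale against 0.270. Other genes with bright probe sets (a mean log2 signal above 12) were close to the members, with a median SD of 0.127 and intervals within 1.5-fold for 86.1% and within 2-fold for 97.1%. The widest intervals belonged to complex IV genes with dim probe sets.

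The direction of the small differences was uneven. Of the 93 members, 65 (69.9%) had a lower mean in Tg, against 47.9% of all genes, and the median difference was -0.06 against 0.01 for all genes. Signals in Tg and non-Tg did not overlap for 9 members that were lower in Tg and 3 that were higher, beside 5.64% and 6.04% of all genes, or 11.7% in either direction. With arrays centred on their own median instead, 79 of 93 members (84.9%) and 59.6% of all genes were lower; the gap between the member median and that of all genes was -0.07 on either scale. Bright probe sets leaned the same way outside the chain: with a mean log2 signal above 12, a grouping chosen after the values were seen, 57 of 73 members and 734 of 1187 other genes (61.8%) were lower. In that range 9 members (12.3%) and 131 other genes (11.04%) were lower without overlap, and the median differences were -0.07 and -0.04.

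**Figure D1:**
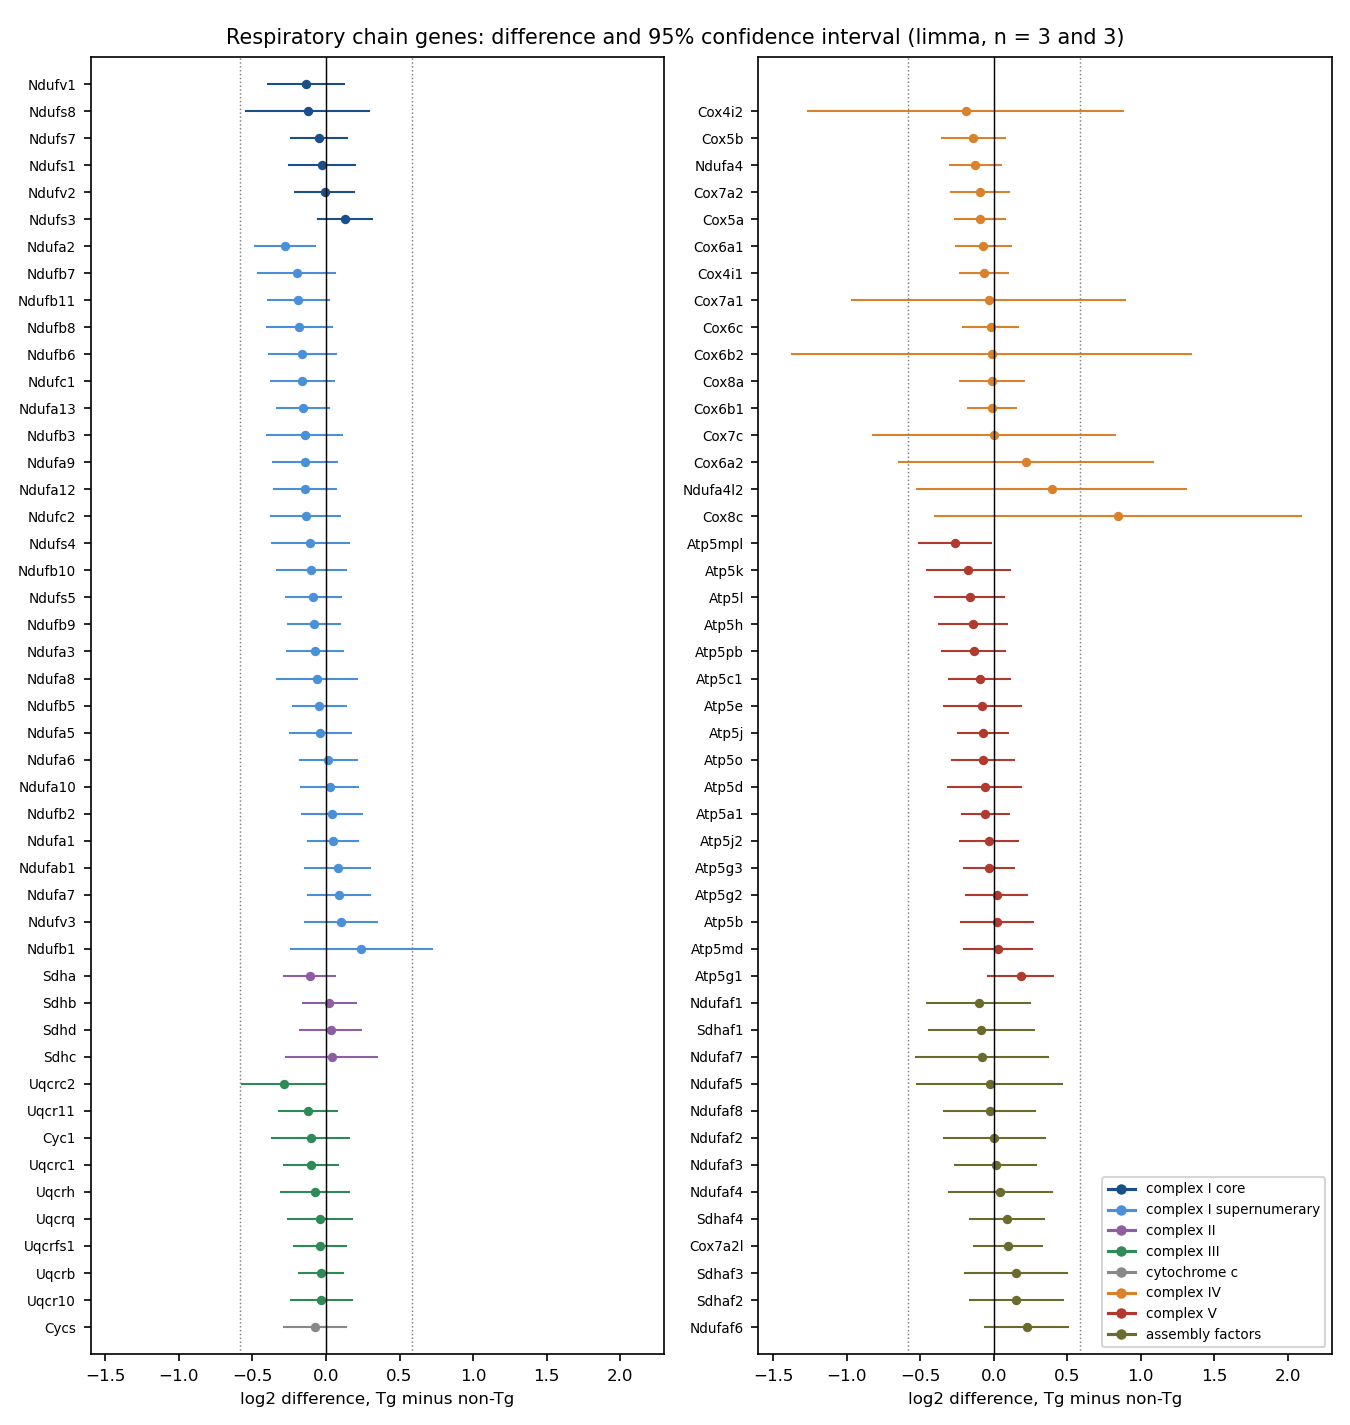
Log2 difference in signal, Tg minus non-Tg, for the 93 respiratory chain genes tested, with points at the estimate and bars for the 95% confidence interval of the limma fit; colours mark the complex and dotted lines a 1.5-fold difference either way. Most points lie just left of 0 with short intervals, and the long intervals belong to complex IV forms with dim probe sets.

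**Figure D2:**
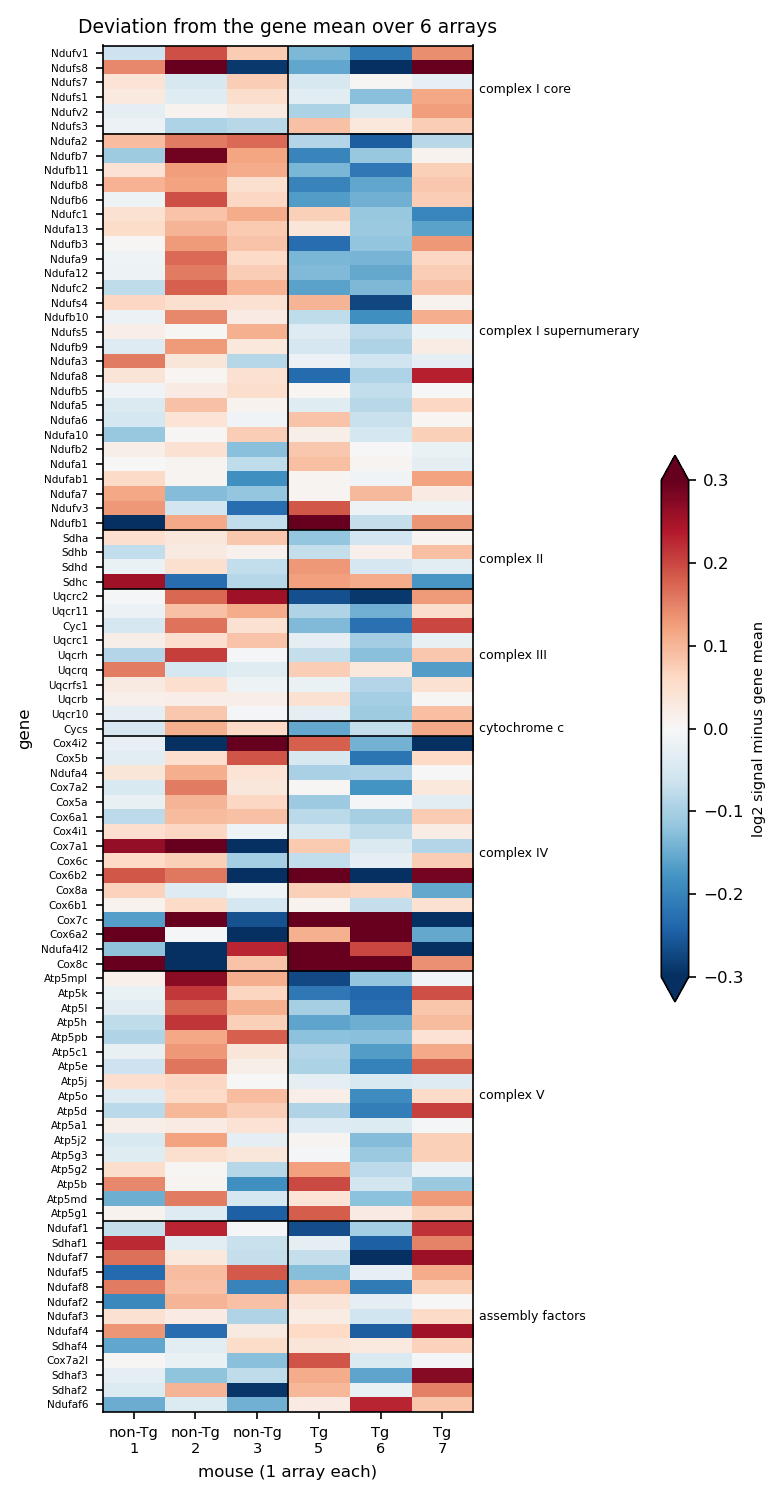
Deviation of each gene's log2 signal from its own mean over the 6 arrays, with genes in rows by complex and mice in columns; the colour scale ends at 0.3 either way. Blue cells gather in the column of Tg 6, the lowest of the 6 arrays for 44 of 93 members, and red cells in that of non-Tg 2, the highest for 32.

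Complex I, the NADH dehydrogenase, had 33 tested members, of which 24 were lower in Tg and 9 higher, with a median difference of -0.08 and 0 called. Ndufa2, an accessory subunit of the NADH-oxidizing end of the complex, had log2 signals of 12.91, 12.97 and 12.98 in the non-Tg mice and 12.73, 12.57 and 12.73 in the Tg mice. All 3 Tg mice lay below all 3 non-Tg mice. The difference was -0.28 ± 0.09 (SE), a fold of 0.824 with a 95% interval from 0.715 to 0.951 (limma adjusted p = 0.779). The exact permutation p, from all 20 ways to split the mice, was 0.1, the smallest value that 3 mice against 3 allow. Ndufa2 differed by -0.26 within the lower set of arrays and by -0.25 within the higher set.

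Other accessory subunits of complex I had smaller or less even differences. Ndufa13 was 14.69, 14.74 and 14.71 in non-Tg and 14.67, 14.52 and 14.47 in Tg mice (difference -0.16 ± 0.08 SE, limma adjusted p = 0.816), without overlap but with Tg 5 close to the non-Tg mice. Ndufs5, an accessory subunit on the intermembrane side, was also lower without overlap, by -0.09 ± 0.08. Among the membrane-arm subunits, Ndufb7 differed by -0.20 ± 0.12, Ndufb11 by -0.19 ± 0.09 and Ndufb8 by -0.18 ± 0.10, all with overlap on the brightest probe set. Other probe sets gave -0.04 for Ndufb7 and, from a dim one, 0.35 for Ndufb8, both with overlap. For Ndufb11 a nearly equally bright one gave -0.17 without overlap, and another gave -0.01 with overlap. Ndufb1, a small membrane-arm subunit, lay at the other end with 0.24 ± 0.21, and its groups overlapped as well. Neither Ndufab1, the mitochondrial acyl carrier protein (0.08 ± 0.10), nor Ndufb2 (0.04 ± 0.09) differed by more than its SE on its brightest probe set. Their other probe sets disagreed: a second bright one of Ndufb2 was lower without overlap by -0.19 and a dim one stood at 0.41, and those of Ndufab1 ran from -0.12 to 0.58.

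The 6 core subunits of complex I, which carry the flavin, the iron-sulfur clusters or the quinone site, were lower in 5 cases, with a median of -0.04, and in 3 cases with the array set as a block. The exception was Ndufs3, a core subunit of the peripheral arm, with 13.28, 13.20 and 13.21 in non-Tg and 13.38, 13.33 and 13.37 in Tg mice. Its Tg mice all lay above the non-Tg mice, by 0.13 ± 0.08 (SE; limma adjusted p = 0.826). Ndufv1, the subunit that binds NADH, differed by -0.14 ± 0.12 and Ndufs8 by -0.12 ± 0.19, both with overlap. Ndufs8 depended on the probe set: the brightest of 6 gave that value, and the others were all higher in Tg, by 0.04 to 0.08. The core genes had a median of -0.09 within the lower set of arrays and 0.11 within the higher set.

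Complex II, succinate dehydrogenase, which also works in the tricarboxylic acid cycle, had 1 member lower and 3 higher in Tg, with a median of 0.03 that turned to -0.05 with arrays centred on their median. Sdha, the flavin-carrying catalytic subunit, was 14.09, 14.07 and 14.12 in non-Tg and 13.92, 13.98 and 14.04 in Tg mice. Its groups did not overlap, and the difference was -0.11 ± 0.08 (SE; limma adjusted p = 0.833). The second bright probe set of Sdha gave -0.13, again without overlap, and a dim one gave -0.92. Sdhb, the iron-sulfur subunit (0.02 ± 0.08), and the membrane anchors Sdhc (0.04 ± 0.14) and Sdhd (0.03 ± 0.09) overlapped between groups. The direction of Sdhd was not settled: a dimmer probe set gave -0.29 with overlap, and its sign differed in 5 of 21 alternative analyses. Nor was that of Sdhc, whose sign differed in 7 of 21. Sdhc stood at -0.14 within the lower and -0.02 within the higher set of arrays, while its second probe set gave 0.11 with overlap. For Sdhb the sign differed in 3 of 21. Sdha and Sdhd share NRF1 matches in the promoters printed above, and whether these bear on their values was not tested.

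In complex III, the cytochrome bc1 complex, the brightest probe set was lower in Tg for 9 of 9 genes, with a median of -0.08 and 0 called. With the array set as a block 8 of 9 were lower and the median was -0.03. Uqcrc2, a core protein of its matrix side, was 13.38, 13.56 and 13.64 in non-Tg mice and 13.12, 13.09 and 13.51 in Tg mice. Tg 5 and Tg 6 lay below every non-Tg mouse, while Tg 7 lay above non-Tg 1. The difference of -0.28 ± 0.13 (SE) was the lowest of the 93 members (limma adjusted p = 0.807). It was -0.27 within the lower set of arrays and -0.09 within the higher set, and a second probe set of Uqcrc2 gave -0.34.

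Its partner Uqcrc1, the other core protein, was 13.44, 13.47 and 13.51 in non-Tg and 13.39, 13.32 and 13.40 in Tg mice, without overlap, for a difference of -0.10 ± 0.08 (SE; limma adjusted p = 0.843). Cyc1, the haem-carrying cytochrome c1, was 14.02, 14.23 and 14.12 in non-Tg and 13.94, 13.85 and 14.27 in Tg mice. Tg 7 was the highest of the 6 mice for Cyc1 and Tg 6 the lowest, so the groups overlapped (-0.10 ± 0.12). The small subunits Uqcr11 (-0.12 ± 0.09), Uqcrb (-0.04 ± 0.07) and Uqcr10 (-0.03 ± 0.09) overlapped too. Uqcr10 depended on the probe set: its other 2 gave 0.10 without overlap and 0.11 with overlap. Of the 9 genes, 8 had a higher mean in the higher set of arrays than in the lower set.

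Cytochrome c, the soluble carrier between complexes III and IV that Cycs encodes, was 14.25, 14.41 and 14.36 in non-Tg and 14.15, 14.23 and 14.42 in Tg mice. Tg 7 again stood with the highest non-Tg mice and Tg 5 lowest. The difference was -0.08 ± 0.09 (SE), smaller than its error (limma adjusted p = 0.888).

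Complex IV, cytochrome c oxidase, had 12 members lower and 4 higher in Tg out of 16 tested, with a median of -0.03 and 0 called. Several of its subunits exist in forms that are known from different tissues, and these were read as pairs, in a grouping written after the values were seen. Of the 10 forms found in most tissues, 9 were lower, with a median of -0.07. Ndufa4, first named as a complex I subunit and now placed in complex IV, was 14.21, 14.28 and 14.21 in non-Tg and 14.07, 14.08 and 14.17 in Tg mice. Its groups did not overlap, and the difference was -0.13 ± 0.08 (SE; limma adjusted p = 0.824). Cox5b (-0.14 ± 0.09), Cox7a2 (-0.10 ± 0.09), Cox6a1 (-0.07 ± 0.08) and Cox4i1 (-0.07 ± 0.07) overlapped between groups. Cox5b depended on the probe set: others gave -0.10, -0.05 and 0.04 and, from a dim one, 0.42, all with overlap. Cox6b1 and Cox8a differed by -0.01 each, with SEs of 0.07 and 0.10. Cox7c had only dim probe sets here, one at 0.00 ± 0.37 and another at -0.41, and gave no usable direction.

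The 6 forms known from muscle, lung, testis or hypoxic cells had a median of 0.10, and for none of them did the interval stay within 1.5-fold. Cox4i2, the lung form of subunit 4, differed by -0.19 ± 0.48, and Cox6a2, the heart and muscle form of subunit 6a, by 0.22 ± 0.39. Cox6b2, known from testis, and Cox7a1, known from heart and muscle, differed by -0.02 ± 0.60 and -0.03 ± 0.41. Ndufa4l2, a relative of Ndufa4 known from hypoxic cells, differed by 0.39 ± 0.41, again within its error. Cox8c, known from testis, had the highest value of all members, 0.85 ± 0.56, with 8.96, 6.33 and 8.41 in non-Tg and 8.80, 8.98 and 8.46 in Tg mice. That value rests on non-Tg 2, the only mouse far from the others; without it the difference was 0.06. Cox8b, the muscle and brown fat form, lay below the limit for dim probe sets at a mean of 5.31, so no switch between tissue forms could be read from these signals.

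Complex V had 13 members lower and 4 higher in Tg out of 17, with a median of -0.07 and 0 called. That median rests on Tg 6, since without that mouse it was 0.0014. The 5 genes of the F1 head, which makes ATP, had a median of -0.06, with Atp5a1 lower without overlap (-0.06 ± 0.07) and Atp5b, the catalytic beta subunit, at 0.02 ± 0.11. The 12 genes of the membrane part and stalks had a median of -0.07. Atp5mpl, a small proteolipid of the membrane part, was 12.77, 13.03 and 12.87 in non-Tg and 12.49, 12.64 and 12.75 in Tg mice. The groups did not overlap, though Tg 7 came close to non-Tg 1. The difference was -0.26 ± 0.11 (SE), a fold of 0.834 with an interval from 0.704 to 0.987 (limma adjusted p = 0.807). It was -0.21 within the lower and -0.20 within the higher set of arrays. Atp5k, subunit e, differed by -0.17 ± 0.13 with overlap, and Atp5j, coupling factor 6, by -0.08 ± 0.08 without overlap. Atp5md, a small subunit linked to ATP synthase dimers, stood at 0.03 ± 0.10.

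The 3 genes for subunit c, whose ring turns with the proton flow, had unlike values. Atp5g1 was 13.38, 13.33 and 13.13 in non-Tg and 13.55, 13.39 and 13.44 in Tg mice. It was the one complex V gene with every Tg mouse above every non-Tg mouse, although Tg 6 and non-Tg 1 nearly met. The difference was 0.18 ± 0.10 (SE; limma adjusted p = 0.820), with 0.09 within the lower and 0.21 within the higher set of arrays. Atp5g2 was 13.33, 13.28 and 13.20 in non-Tg and 13.40, 13.20 and 13.26 in Tg mice, a difference of 0.02 ± 0.09 with full overlap. Atp5g3 was 15.13, 15.22 and 15.20 in non-Tg and 15.16, 15.05 and 15.24 in Tg mice, a difference of -0.03 ± 0.08 with overlap. The contrast between Atp5g1 and its relatives was not tested, and a dim second probe set of Atp5g2 gave -0.50.

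**Figure D3:**
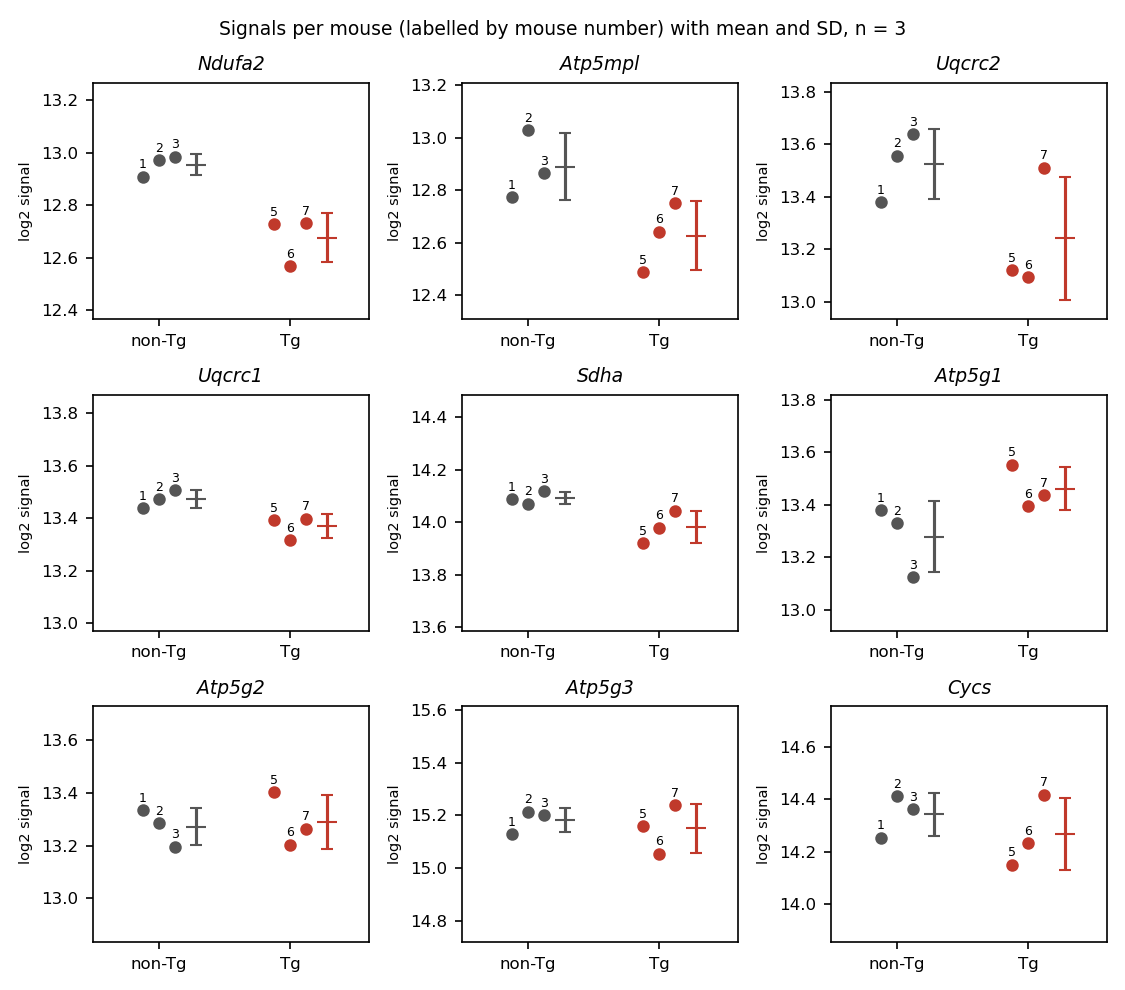
Log2 signals of 9 genes in each mouse, labelled by mouse number, with the mean and SD of each group (n = 3) beside the points; every panel spans the same height on the log2 axis. Ndufa2, Atp5mpl, Uqcrc1 and Sdha lie lower in Tg without overlap and Atp5g1 lies higher, while Tg 7 rejoins the non-Tg mice for Uqcrc2 and Cycs.

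The 13 assembly factors named by the rule stood apart from the subunits in direction, with 5 lower and 8 higher in Tg and a median of 0.01 (-0.06 with arrays centred on their median), against 60 of 80 lower and -0.07 for the subunits and cytochrome c. That contrast was not tested, and assembly factors had dimmer probe sets. Ndufaf6, an assembly factor of complex I, was 10.21, 10.32 and 10.22 in non-Tg and 10.39, 10.59 and 10.45 in Tg mice. All Tg mice were above all non-Tg mice, by 0.22 ± 0.13 (SE; limma adjusted p = 0.820). Ndufaf1, another complex I factor, differed by -0.10 ± 0.16 with overlap. Among the complex II factors, Sdhaf2, which helps attach the flavin to Sdha, stood at 0.15 ± 0.14 and Sdhaf1, which helps insert iron-sulfur clusters into Sdhb, at -0.08 ± 0.16. Cox7a2l, a factor that joins complexes III and IV into supercomplexes, stood at 0.09 ± 0.10.

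The lower signals in Tg were carried by part of the arrays. The median deviation of the 93 members from their own means was -0.01, 0.06 and 0.03 on non-Tg 1, 2 and 3 and -0.03, -0.09 and 0.06 on Tg 5, 6 and 7. So Tg 7 stood with non-Tg 2 at the top, Tg 6 stood lowest, and the groups overlapped. Tg 6 was the lowest array for 44 of 93 members, against 17.7% of all genes, and without it 51 of 93 members were lower in Tg, with a median of -0.02; the medians without it were -0.03 for both complex I and complex III. Without non-Tg 2 the count was 57, with a median of -0.04. Without Tg 7 the count was 67 and the median -0.08, and 12 members (12.9%) had an unadjusted limma p under 0.05, beside 9.39% of all genes.

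The members also differed in level between the sets of arrays. Signals were higher in the higher set for 66 of 93 members (71.0%), against 47.5% of all genes, with a median set difference of 0.09 against -0.02. Within the lower set, Tg was lower than non-Tg for 73 of 93 members (78.5%, median -0.07), against 51.8% of all genes. Within the higher set, Tg was lower for 46 of 93 members (49.5%, median 0.01), close to the 48.4% of all genes. Members lower in both sets numbered 39 (41.9%, against 27.1% of all genes), and 13 were higher in both. With the set as a block in the limma fit, 58 of 93 members (62.4%) were lower, against 49.3% of all genes. In that fit the member median was -0.03 and the lowest limma adjusted p of a member was 0.726. The 3′ to 5′ difference of beta-actin moved with the sets, and that of pyruvate carboxylase with both set and genotype; their part in the members' signals was not tested.

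**Figure D4:**
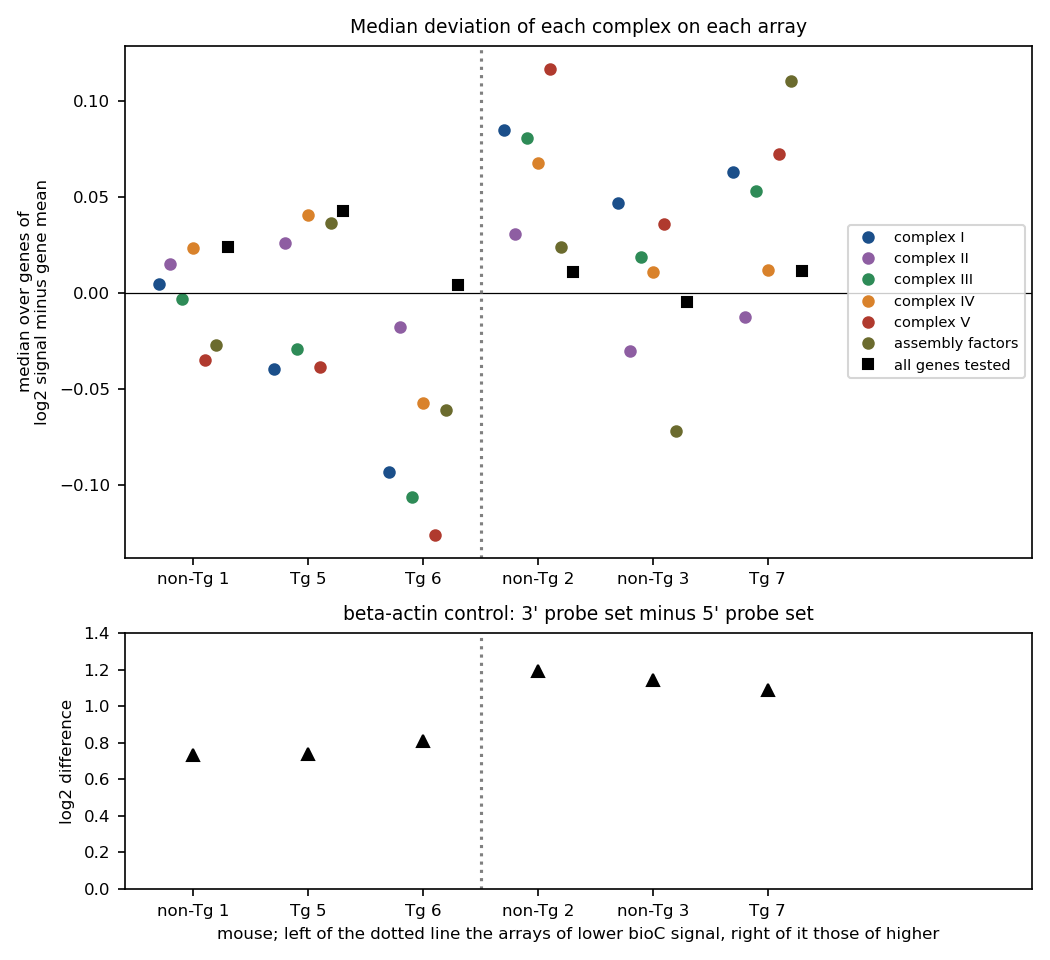
Median deviation of each complex from its gene means on each array (upper panel, log2), with all genes tested as squares, and the 3′ minus 5′ log2 difference of the beta-actin control (lower panel); the dotted line divides the lower from the higher set of arrays. Complexes I, III and V lie lowest on Tg 6 and above 0 on non-Tg 2, non-Tg 3 and Tg 7, and the beta-actin difference is 0.735 to 0.810 on the left and 1.09 to 1.19 on the right.

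**Figure D5:**
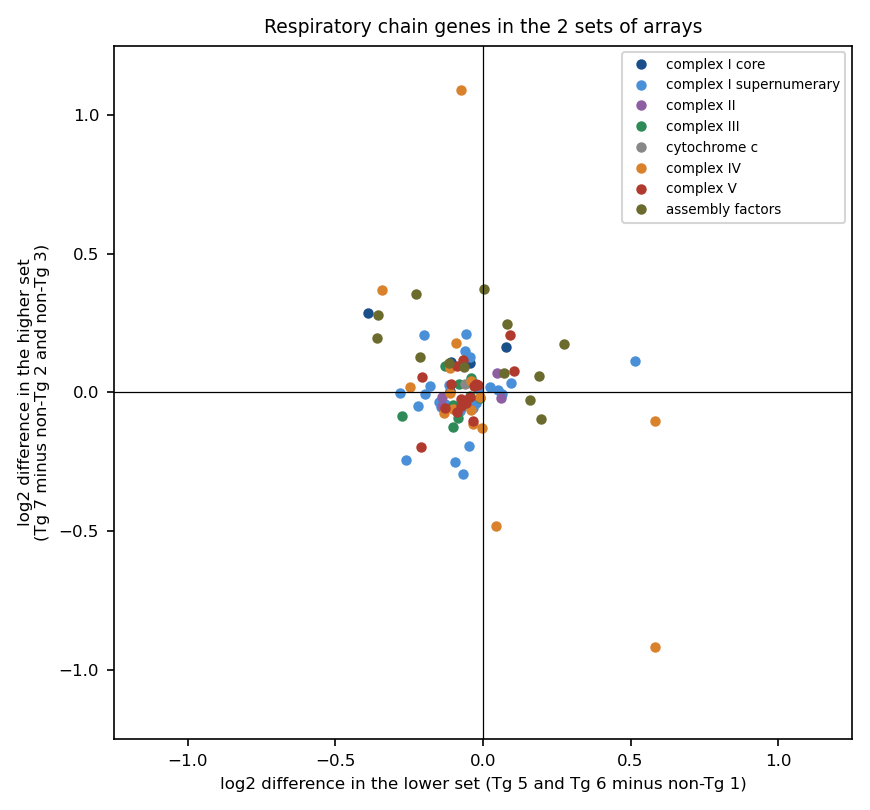
Log2 difference, Tg minus non-Tg, of each of the 93 members within the lower set of arrays (horizontal axis, Tg 5 and Tg 6 against non-Tg 1) and within the higher set (vertical axis, Tg 7 against non-Tg 2 and non-Tg 3), coloured by complex. Points crowd left of the vertical line, 73 of 93, but spread evenly above and below the horizontal one, where 46 are lower.

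Markers of other cell types were uneven between the arrays as well. All 9 macrophage markers had a higher mean in Tg, with a median difference of 0.28 and 0 called by limma, and their median deviation was 1.05 on Tg 6 and at most -0.03 on each other array. The log2 of their summed signal was 14.5 to 14.7 in non-Tg and 14.1 to 15.6 in Tg mice, highest in Tg 6 and lowest in Tg 7, and none of the 9 lay below the limit for dim probe sets. Erythroid markers were higher in Tg for 3 of 4 tested, and their summed signal (5 on the array, 1 below the limit) was 11.8 to 11.9 in non-Tg and 12.1 to 12.7 in Tg mice. Summed hepatocyte markers were 18.9 to 19.1 in non-Tg and 19.0 in all Tg mice. Lymphocyte and NK markers were higher in Tg for 6 of 8 tested (median 0.30), with a summed signal of 10.01 to 10.61 in non-Tg and 10.36 to 10.97 in Tg mice (11 on the array, 3 below the limit). Stellate cell markers were lower for 5 of 9 (median -0.25), with sums of 13.8 to 14.2 and 13.7 to 13.9 (10 on the array, 1 below). Bile duct markers were lower for 3 of 4 (median -0.48), with sums of 8.57 to 9.53 and 8.41 to 9.02 (6 on the array, 2 below). These median differences are larger than that of the members, and 0 markers of these lists were called. The part of other cell types in the members' values was not tested.

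Genes that work around the chain also had no gene called, and their direction differed between lists. The lists were written with earlier results of these data known. The array carried 1 subunit encoded in mitochondrial DNA, ND5 of complex I, at 15.85, 15.94 and 15.86 in non-Tg and 15.73, 15.74 and 15.80 in Tg mice. ND5 was lower in Tg without overlap, by -0.13 ± 0.07 (SE; limma adjusted p = 0.820). Of 38 tested assembly factors outside the naming rule, 21 were lower and 17 higher, with a median of -0.03. The lowest was Sco2, which delivers copper to complex IV, with 12.37, 12.19 and 12.23 in non-Tg and 11.55, 11.96 and 11.36 in Tg mice. Sco2 did not overlap, and its difference was -0.64 ± 0.15 (limma adjusted p = 0.653), with -0.61 and -0.85 within the lower and higher sets. Cox15, which makes haem A for complex IV, differed by -0.51 ± 0.19 with overlap (limma adjusted p = 0.787). Others of that list, named after their values were seen, lay higher: Sco1, a relative of Sco2, by 0.38 ± 0.20 and Atpaf2, a complex V factor, by 0.33 ± 0.16, both without overlap, and Coa6, a complex IV factor, by 0.38 ± 0.18 with overlap. Their limma adjusted p ran from 0.807 to 0.820.

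Enzymes that feed electrons to coenzyme Q outside complexes I and II were lower in 7 of 8 cases, with a median of -0.12 and 0 called. Gpd2, the mitochondrial glycerol-3-phosphate dehydrogenase, was 10.73, 11.05 and 11.07 in non-Tg and 9.91, 10.23 and 10.77 in Tg mice. Tg 7 lay just above non-Tg 1, and the difference was -0.65 ± 0.21 (SE; limma adjusted p = 0.776). Etfdh, which passes electrons from fatty acid oxidation, was lower without overlap by -0.29 ± 0.10 (limma adjusted p = 0.779). Coenzyme Q synthesis leaned the other way, with 8 genes higher and 4 lower and a median of 0.05. Without overlap, 2 of its 12 genes were higher (16.7%) and 1 was lower (8.33%), beside 6.04% and 5.64% of all genes. The lower one was Coq8a, a kinase-like protein of that pathway, by -0.37 ± 0.12 (limma adjusted p = 0.779). In the tricarboxylic acid cycle and pyruvate dehydrogenase, 11 of 16 genes were lower, with a median of -0.07; with the array set as a block 8 of 16 were lower and the median was -0.0017. Pdha1, a subunit of pyruvate dehydrogenase, differed by -0.30 ± 0.11 without overlap and Sucla2, of succinyl-CoA ligase, by -0.26 ± 0.11 with overlap (limma adjusted p = 0.787 and 0.807). The carriers of ATP and phosphate and the porins had 5 of 7 tested genes higher and a median of 0.01.

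Transcriptional regulators of respiration were lower for 13 of 17, with a median of -0.13 and 0 called. The factors whose letters were sought in the promoters stood at 0.16 ± 0.28 for Nrf1, -0.11 ± 0.15 for Gabpa, the DNA-binding subunit of GABP, -0.13 ± 0.13 for Yy1 and 0.30 ± 0.18 for Esrra, all with overlap. Ppargc1a, the coactivator PGC-1alpha, stood at 0.13 ± 0.27 with overlap. Sirt3, a mitochondrial deacetylase on that list, was 12.16, 12.24 and 12.48 in non-Tg and 11.91, 11.87 and 12.01 in Tg mice, lower without overlap by -0.37 ± 0.11 (limma adjusted p = 0.735). Genes that express and copy mitochondrial DNA split evenly, 9 and 9. Twnk, the mitochondrial helicase, was higher without overlap by 0.34 ± 0.14 (limma adjusted p = 0.807), and Tfam, which packs and transcribes mitochondrial DNA, stood at -0.16 ± 0.13 with overlap.

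Nnt, an inner-membrane enzyme that uses the proton gradient to make NADPH but is no subunit of the chain, was the only other gene besides Retnla to pass the test. It was 11.30, 11.37 and 11.44 in non-Tg and 13.01, 12.71 and 12.70 in Tg mice, 1.43 ± 0.11 (SE) higher (limma adjusted p = 0.00197). Nnt is known to carry a deletion in C57BL/6J mice, and whether the groups differ in strain background was not tested.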

How the data were processed

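The deposited values are log2 signals, 1 for each probe set on each array. GCOS, the Affymetrix array software, is named in the submitters' processing notes; neither its version nor the summary algorithm is given in the sources used here. The authors' log2 values were used as deposited; antilogged, their mean with 2% trimmed at each end was 500 on every array. Control probe sets and probe sets with several symbols or none were left out (10 probe sets with several symbols held a member's name), as were probe sets with a mean at or below the 40th percentile (5.63). All 96 member names matched RefSeq. Tg and non-Tg were compared with limma 3.58.1 (R 4.3.3; lmFit, eBayes with trend, 2-sided), adjusted by Benjamini and Hochberg over 12705 genes; SEs and 95% intervals come from that fit. The limma fit was tested on simulated data without array sets and with differences larger than that of any member. That test does not cover differences as small as theirs. Promoters were searched with Python 3.11.15 and figures drawn with matplotlib 3.10.9.

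Members and lists were chosen with earlier results of these data known. Named members are those with unadjusted p under 0.05, the 2 highest and 2 lowest per complex, tissue-form families, complex II, Cyc1, Cycs, and members whose probe sets differ in sign by over 0.3; members whose groups do not overlap, and Ndufv1, Ndufs8, Atp5a1 and Atp5b, were named after their values were seen. From the other lists come 6 regulators and up to 3 genes of lowest p. Alternatives were constants before the log, filters, normalization, moderation, probe set choice, array sets as a block and leaving out each mouse. The labels describe the arrays as separate mice; 3 arrays per group limit the precision, and no detection calls were used.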

Additional observations from a re-analysis of the deposited data

How the results depend on the processing

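No paired analysis was possible because the groups share no replicate numbers (1 to 3 against 5 to 7). No member was called by limma under any of the 19 alternatives that gave a test (lowest adjusted p 0.397, without Tg 7), and the count of members lower in Tg ran from 46 to 79. All genes called numbered 2 and became 4 with 16 added before the log, 6 with 64 added, 6 with the filter at the 20th percentile, 5 with arrays centred on their median, 4 with robust moderation, 4 with the array set as a block and 1 with the dimmest kept probe set. Centring the arrays moved the medians to -0.131 for all members, -0.155 for complex I, -0.0475 for complex II, -0.152 for complex III, -0.101 for complex IV, -0.0615 for assembly factors and -0.0626 for all genes. Within the higher set they were 0.00606 for all members, -0.00307 for complex I, -0.0182 for complex II, 0.0242 for complex V and 0.128 for assembly factors; within the lower set, -0.0452 for complex II and -0.0132 for all genes. Complex II, with 4 genes, was -0.0284 with the block, -0.0532 with the mean of kept probe sets, -0.133 with the dimmest one (all genes 0.0296), and -0.0187 to 0.0191 leaving out each mouse. Leaving out each mouse gave -0.102 to -0.0337 for complex I, -0.12 to -0.0342 for complex III, -0.0772 to -0.0118 for complex IV, -0.121 to 0.00139 for complex V, -0.0126 to 0.0705 for assembly factors and -0.0833 to -0.0188 for all members. Of 876 values of 42 named members under alternatives, 49 moved by over 1 SD and 92 differed in sign. The cause was not tested. Signals without detection calls leave differences of dim probe sets, such as the tissue forms of complex IV, loosely bounded.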
